A study of Prunus persica with 16 samples.

Results

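In buds of the peach cultivar TropicBeauty, 32 of 26873 genes had group medians at least 2 lower on the log2 scale at 7 than at 3 days, both in buds of trees sprayed with hydrogen cyanamide (HC) and in buds of untreated trees, while HC and control buds stayed within 1 of each other on each day. These genes were chosen by their measured values, so their falls and their small differences between treatments are descriptions, and calls of tests on these contrasts, by limma or in the authors' deposited tables, are printed for description and support nothing about the members. A fall below means this difference of group medians, whether or not a test called it. The level of a gene was given in FPKM (fragments per kilobase of transcript, scaled to library depth), which puts genes of different length and libraries of different depth on 1 scale. A gene became a member when its mean over 16 libraries was at least 20 FPKM and the median of log2(FPKM + 1) over the 4 libraries of each group met the limits above. Of 5733 genes with that mean, 190 passed the time limit in HC buds, 243 in control buds and 82 in both. The limit on the difference between treatments left out 50 of these 82, 37 by the 3-day values, 33 by the 7-day values and 20 by both. The opposite rule, for genes rising with time in both treatments, gave 77 genes.

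The trees were 5 years old, grafted on Floridaguard rootstock, and had met 11 of the 150 chilling hours that this low-chill cultivar requires. The groups were HC buds at 7 days, control buds at 7 days, HC buds at 3 days and control buds at 3 days, with 4 libraries each. The spray held 1% (v/v) HC and 0.15% (v/v) of a non-ionic surfactant, and control trees received no HC. The labels mention no surfactant for control trees, so HC and surfactant cannot be told apart. Each replicate was a tree, and the labels give 4 trees per treatment for both days. They do not say whether 1 replicate number is 1 tree on both days. Day also stands for the conditions of each harvest, which cannot be told apart from time since the spray.

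A dormant bud of a temperate fruit tree holds a shoot or flower meristem under protective scales, and it resumes growth only after a period of cold. Hydrogen cyanamide is a growth regulator that growers spray on dormant trees to replace part of the missing cold and bring bud break forward. Change between sampling days in unsprayed buds takes in the course of the bud itself and of its weather. None of the 26873 identifiers matched the reference table used here, so the 32 genes are named by identifier, with no function, and the buds could not be checked against marker genes. The number after "Prupe." in an identifier is the chromosome number.

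Estimated depth was lower at 7 days by group median, with overlap between libraries of the days. Estimated reads in genes had a median of 3.48 M (mega-reads) in HC buds and 2.83 M in control buds at 7 days, against 10.9 M in HC buds and 7.26 M in control buds at 3 days. The estimate ran from 0.555 M (control buds, 7 days, replicate 1) to 22.1 M (HC buds, 3 days, replicate 3). Genes above 0 numbered between 8667 (control buds, 3 days, replicate 2) and 18378 (HC buds, 7 days, replicate 1) per library.

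The 32 genes were lower at 7 days in the whole set of libraries. Their mean log2(FPKM + 1) lay between 3.73 and 4.36 in HC buds and between 3.66 and 4.46 in control buds at 7 days, against 7.11 to 7.41 in HC buds and 6.83 to 7.55 in control buds at 3 days. No 7-day library reached any 3-day library on this mean. The rule chose these genes for lower 7-day medians, so nothing is read from this separation. In bulk buds, fewer cells of a type and less RNA per cell cannot be told apart. Estimated depth was also lower at 7 days by group median, and the part of depth in the falls was not tested. The deepest 7-day library, HC replicate 1 with 16.7 M estimated reads, had a mean of 4.36, and 25 of the 32 genes in it were 2 or more below the HC median of 3 days. The shallowest 3-day library, control replicate 2 with 1.43 M, had a mean of 6.83.

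**Figure D1:**
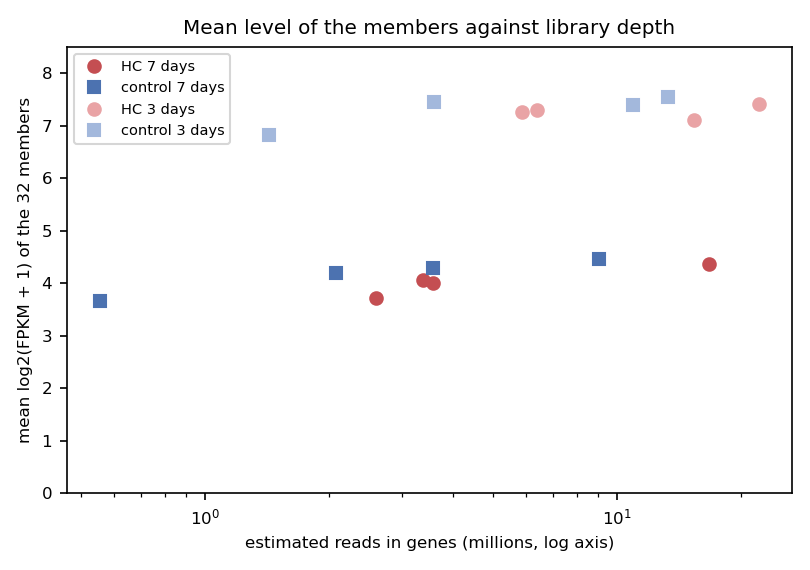
Mean log2(FPKM + 1) of the 32 genes (vertical axis) against estimated reads in genes in M (horizontal log axis), 1 point per library, circles for HC and squares for control. The 8 libraries of 7 days lie between 3.66 and 4.46 and the 8 of 3 days between 6.83 and 7.55, at overlapping depths. The genes were chosen for lower 7-day medians, so nothing is read from the gap.

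In HC buds the differences of group medians, 7 minus 3 days, ran from -7.33 to -2.05 with a median of -2.92, a 7.58-fold fall of FPKM + 1. In control buds they ran from -8.29 to -2.002 with a median of -2.79, a 6.91-fold fall. Over all 5733 genes with a mean of at least 20 FPKM, the medians were -0.01 in HC and -0.10 in control buds. Both falls were past 4 in 5 members, past 3 but not both past 4 in another 6, and between 2 and 3 in 15. In the other 6, a single fall was past 3.

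**Figure D2:**
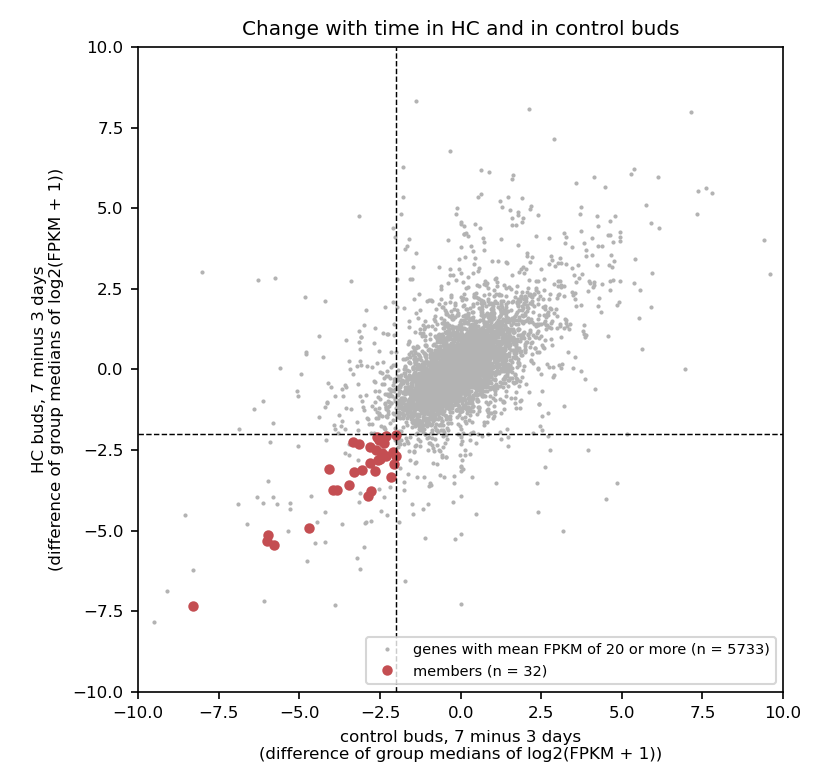
Difference of group medians of log2(FPKM + 1), 7 minus 3 days, in HC buds (vertical) against control buds (horizontal), for 5733 genes in grey and the 32 members in red. Dashed lines mark the limit of -2 on both axes, and the members lie along the diagonal below both lines because the rule required it.

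Levels were modest at 7 days and moderate to very high at 3 days. The median over members of the group-median level was 13.7 FPKM in HC buds and 17.3 FPKM in control buds at 7 days, against 90.8 FPKM in HC buds and 99.6 FPKM in control buds at 3 days. At 7 days 3 members stayed over 100 FPKM in both treatments, against 14 at 3 days. Of 256 values at 7 days, 38 were listed at 0, 17 in HC and 21 in control buds. At 3 days 7 were, 3 in HC and 4 in control buds. The low levels at 7 days went with a wider spread between libraries. Low values rest on few estimated reads, so counting error and differences between trees cannot be told apart in this spread. The median SD of log2(FPKM + 1) over members was 0.94 in HC and 0.92 in control buds at 7 days, against 0.42 in HC and 0.45 in control buds at 3 days (n = 4 each). Over the 5733 genes it was 0.43 in HC and 0.55 in control buds at 7 days, and 0.39 in HC and 0.60 in control buds at 3 days.

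**Figure D3:**
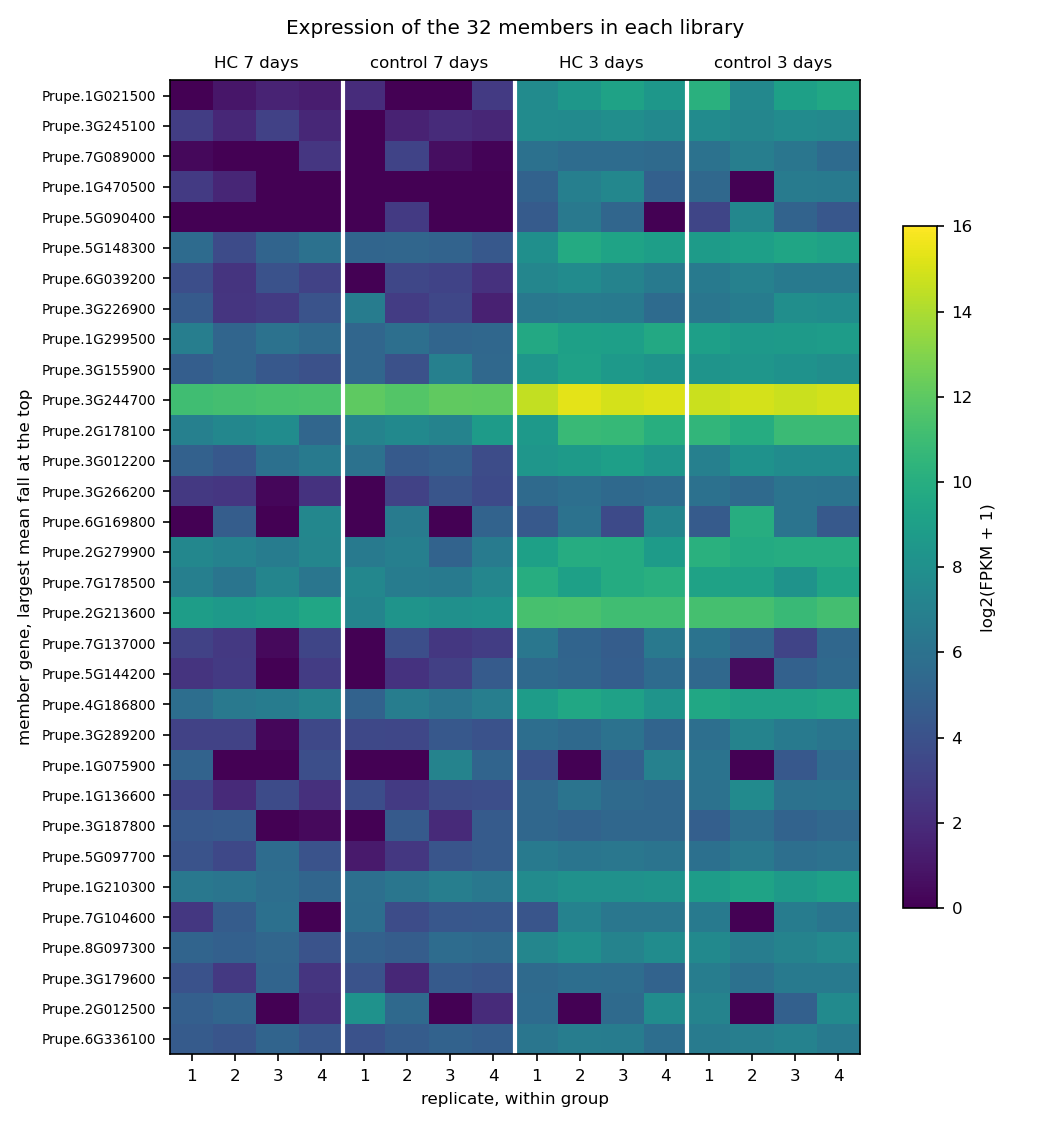
Level of each of the 32 members (rows, largest mean fall at the top) in each of 16 libraries (columns, by group and replicate), coloured by log2(FPKM + 1). The 2 left blocks (7 days) are darker than the 2 right blocks (3 days) in nearly every row, and the row of Prupe.3G244700 is the brightest.

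The steepest fall belonged to Prupe.1G021500. It had 0, 0.95, 2.00 and 1.44 FPKM in HC buds and 3.07, 0, 0 and 5.6 FPKM in control buds at 7 days. At 3 days it had 213, 352, 603 and 349 FPKM in HC buds and 1144, 179, 543 and 734 FPKM in control buds. A gene at 179 FPKM or more in every 3-day library was thus at 5.6 FPKM or less in all 8 libraries of 7 days. Its falls in group medians were -7.33 in HC and -8.29 in control buds, and with a pseudocount of 0.1 in place of 1 they were -8.11 in HC and -10.13 in control buds. The lowest 3-day library was 106 times the highest 7-day one in HC buds and 32.0 times in control buds.

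Prupe.3G245100 fell next most and was the most even of the steep fallers at 3 days. It had 6.48, 2.42, 7.47 and 2.5 FPKM in HC buds and 0, 1.84, 2.96 and 2.35 FPKM in control buds at 7 days. At 3 days it stood at 207, 201, 235 and 194 FPKM in HC buds and at 212, 163, 211 and 187 FPKM in control buds. The falls were -5.32 in HC and -6.01 in control buds, with a gap of 25.9 and 55.0 times between the nearest libraries of the days. Its median estimated reads were 20.9 in HC and 9.46 in control buds at 7 days, against 3488 in HC and 2309.7 in control buds at 3 days.

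Prupe.7G089000 was close to 0 in most 7-day libraries. Its values were 0.29, 0, 0 and 4.84 FPKM in HC buds and 0, 8.48, 0.50 and 0.11 FPKM in control buds at 7 days, against 62.6, 48.7, 49.6 and 45.4 FPKM in HC buds and 63.2, 115, 77.6 and 47.3 FPKM in control buds at 3 days. At 7 days 2 HC libraries and 3 control libraries were above 0, and 1 of each treatment was above 1 FPKM. The falls were -5.46 in HC and -5.78 in control buds, and -7.96 in HC and -7.63 in control buds with a pseudocount of 0.1 in place of 1.

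For Prupe.1G470500 and Prupe.5G090400, libraries at 0 appeared on both days. Prupe.1G470500 had 5.68, 2.31, 0 and 0 FPKM in HC buds and 0 in all control libraries at 7 days, against 32.1, 121, 169 and 29.6 FPKM in HC buds and 41.6, 0, 98.6 and 93.8 FPKM in control buds at 3 days. Its HC groups did not overlap, but control replicate 2 at 3 days, a library of 1.43 M estimated reads, was listed at 0 like the 7-day libraries. Prupe.5G090400 was listed at 0 in all HC libraries and had 0, 5.66, 0 and 0 FPKM in control libraries at 7 days, against 23.1, 88.0, 37.9 and 0 FPKM in HC buds and 9.31, 169, 32.5 and 18.9 FPKM in control buds at 3 days. Here HC replicate 4 at 3 days was listed at 0, like all HC libraries of 7 days. The differences of group medians were -5.13 in HC and -5.99 in control buds for Prupe.1G470500, and -4.93 in HC and -4.69 in control buds for Prupe.5G090400, values that depend on the pseudocount. With one of 0.1 they were -6.99 in HC and -9.29 in control buds for Prupe.1G470500, and -8.21 in HC and -7.96 in control buds for Prupe.5G090400.

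Prupe.5G148300, the last of the 6 with the largest mean fall, stayed well above 0. At 7 days it had 47.0, 11.8, 34.1 and 61.3 FPKM in HC buds and 36.8, 37.6, 33.0 and 20.3 FPKM in control buds. At 3 days it had 248, 896, 614 and 497 FPKM in HC buds and 448, 531, 669.8 and 576 FPKM in control buds. The falls of -3.75 in HC and -3.95 in control buds were close to each other, and the lowest 3-day library was 4.04 times the highest 7-day library in HC buds and 11.9 times in control buds.

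**Figure D4:**
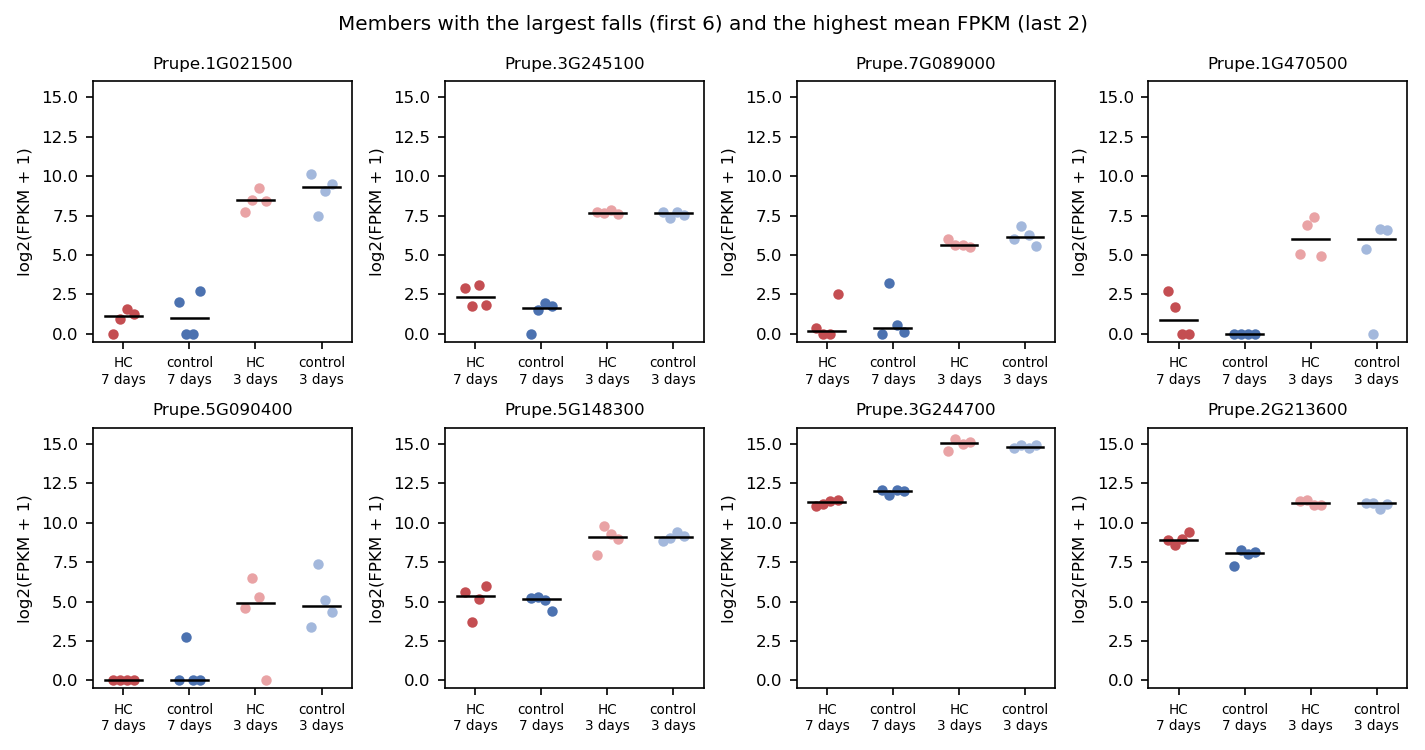
Level in log2(FPKM + 1) of the 6 members with the largest mean fall and the 2 with the highest mean level, in HC and control buds at 7 days and then at 3 days. Each point is a library (n = 4 per group) and the bar is the group median, and in the 2 most abundant genes the points of a group lie close together.

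Prupe.3G244700 stood far above the other members in level. It had 2139, 2372, 2601 and 2737 FPKM in HC buds and 4253, 3385, 4285 and 4141 FPKM in control buds at 7 days. At 3 days it had 24132, 41316, 32647 and 35963 FPKM in HC buds and 27010.5, 31704, 26663 and 30728 FPKM in control buds. It was the most abundant gene in 7 of 8 libraries at 3 days (rank 2 in the other), and ranked between 20 and 50 at 7 days. Its share of all FPKM in a library lay between 0.199% and 0.369% at 7 days, against 2.27% to 3.50% at 3 days. The 31 other members together held between 0.108% and 0.150% at 7 days, against 0.809% to 0.989% at 3 days.

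The next most abundant member, Prupe.2G213600, had 477, 378, 489 and 693 FPKM in HC buds and 149, 312, 255 and 282 FPKM in control buds at 7 days. At 3 days it had 2594, 2754, 2202 and 2230.1 FPKM in HC buds and 2436, 2472, 1863 and 2345 FPKM in control buds. The 3-day groups were level with each other, while at 7 days each HC library was above each control library. Its falls were -2.31 in HC and -3.15 in control buds.

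Prupe.2G178100 and Prupe.2G279900 complete the 4 most abundant. Prupe.2G178100 had 124, 168, 216 and 38.2 FPKM in HC buds and 142, 195, 139 and 446 FPKM in control buds at 7 days, against 402, 1876, 1654 and 1042 FPKM in HC buds and 1494, 969, 1943 and 1878 FPKM in control buds at 3 days. Its libraries varied more than those of the 2 genes above, and HC replicate 1 at 3 days was the lowest of its day. Prupe.2G279900 had 172, 137, 103 and 161 FPKM in HC buds and 91.7, 119, 33.4 and 98.1 FPKM in control buds at 7 days, against 553, 969, 924 and 446 FPKM in HC buds and 1119.7, 866, 979 and 945 FPKM in control buds at 3 days. Both genes kept every 7-day library under every 3-day library of the same treatment.

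The groups of the days did not overlap for most members. Every 7-day library was below every 3-day library for 26 of 32 members in HC buds, where 15.0% of the 5733 genes were so placed, and for 24 members in control buds, where 13.1% were. All 8 libraries of 7 days were below all 8 of 3 days for 21 members, against 4.64% of the 5733 genes. The rule chose the members on these contrasts, so nothing is read from the excess. Among the 22 members with no overlap in either treatment, the lowest 3-day library was between 1.44 and 106 times the highest 7-day library in HC buds, and between 1.18 and 55.0 times in control buds. Of 16596 genes tested with limma on log2(FPKM + 1), 2.62% were lower at 7 days in HC buds at a Benjamini-Hochberg adjusted p under 0.05, and 24 of the 32 members were among them. In control buds the figures were 3.95% and 25 members. Both comparisons called 23 members, and neither called 6. Of the other 3, Prupe.7G137000 was called in HC buds, and Prupe.3G179600 and Prupe.5G097700 were called in control buds.

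The 6 members that neither comparison called were Prupe.1G075900, Prupe.2G012500, Prupe.3G187800, Prupe.5G144200, Prupe.6G169800 and Prupe.7G104600. Their libraries scattered widely within groups, mostly at 7 days. Prupe.1G075900 had 32.8, 0, 0 and 13.3 FPKM in HC buds and 0, 0, 142 and 34.9 FPKM in control buds at 7 days, against 15.2, 0, 30.7 and 132 FPKM in HC buds and 68.2, 0, 19.9 and 49.3 FPKM in control buds at 3 days. Prupe.2G012500 had 27.4, 36.7, 0 and 3.54 FPKM in HC buds and 281, 42.8, 0 and 2.97 FPKM in control buds at 7 days, against 47.1, 0, 45.9 and 220.4 FPKM in HC buds and 141, 0, 28.7 and 198 FPKM in control buds at 3 days. In both genes the days overlapped in both treatments, and the highest control library of all was a 7-day one.

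Prupe.6G169800 showed the same scatter, with 0, 25.3, 0 and 166 FPKM in HC buds and 0, 101, 0 and 33.7 FPKM in control buds at 7 days, against 21.6, 64.7, 11.2 and 149.6 FPKM in HC buds and 23.2, 1014, 71.0 and 20.9 FPKM in control buds at 3 days. These 3 genes had length-like factors under 0.1 of the median over genes, so few reads made a high FPKM. Their median estimated reads at 3 days were 33.7 in HC and 16.9 in control buds for Prupe.1G075900, 62.5 in HC and 28.9 in control buds for Prupe.2G012500, and 17.0 in HC and 23.5 in control buds for Prupe.6G169800. Every other member had at least 57.7. With so few reads, the value of a single library of these 3 genes carries a wide counting error.

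The remaining 3 of the 6 had more reads and varied widely between libraries. Prupe.3G187800 had 20.2, 21.6, 0 and 0.32 FPKM in HC buds and 0, 21.9, 2.80 and 23.2 FPKM in control buds at 7 days, against 39.6, 33.7, 39.8 and 39.4 FPKM in HC buds and 27.3, 55.8, 33.8 and 42.2 FPKM in control buds at 3 days. Its 7-day libraries fell into a pair above 20 FPKM and a pair under 1 FPKM in HC buds, and their median of 10.3 FPKM lay between the pairs. All 8 of its 7-day libraries were nonetheless below all 8 of 3 days. Prupe.5G144200 had 4.34, 5.52, 0 and 6.16 FPKM in HC buds and 0, 3.98, 7.35 and 23.6 FPKM in control buds at 7 days, against 43.8, 36.3, 26.2 and 47.7 FPKM in HC buds and 41.8, 0.38, 30.3 and 43.1 FPKM in control buds at 3 days. Only control replicate 2 of 3 days, at 0.38 FPKM, overlapped the later day. Prupe.7G104600 had 5.04, 24.6, 59.96 and 0 FPKM in HC buds and 52.8, 12.3, 19.5 and 20.6 FPKM in control buds at 7 days, against 18.0, 134, 80.1 and 78.8 FPKM in HC buds and 92.4, 0, 105 and 75.03 FPKM in control buds at 3 days, and its days overlapped in both treatments.

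Members at the edge of the rule differed little from genes left out by it. Just inside were Prupe.6G336100, with falls of -2.05 in HC and -2.01 in control buds, Prupe.2G012500, with -2.07 in HC and -2.30 in control buds, and Prupe.7G104600, with -2.69 in HC and -2.002 in control buds. Just outside on the HC side were Prupe.1G356400, with -1.99 in HC and -2.28 in control buds, and Prupe.2G265400, with -1.97 in HC and -2.69 in control buds. On the control side they were Prupe.5G232000, with -2.26 in HC and -1.97 in control buds, and Prupe.2G178200, with -2.22 in HC and -1.96 in control buds. Prupe.1G356400 had a mean of 10151 FPKM, above every member but Prupe.3G244700. Prupe.6G336100 itself was steady, with 23.2, 18.0, 34.3 and 19.1 FPKM in HC buds and 15.2, 24.2, 31.1 and 26.5 FPKM in control buds at 7 days, against 76.8, 107, 106 and 54.7 FPKM in HC buds and 98.2, 112, 137 and 96.2 FPKM in control buds at 3 days. With the mean limit dropped, 56 more genes met the rest of the rule.

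The HC fall was the larger one in 16 members and the control fall in 16, and the 2 falls were within 1 of each other in 28. The difference of group medians, HC minus control, ran from -0.98 to 0.86 at 7 days with a median of -0.19, and from -0.89 to 0.80 at 3 days with a median of -0.03. HC buds were the lower ones on both days in 12 members and the higher ones on both days in 7.

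In 4 members the falls of HC and control buds were more than 1 apart, and in Prupe.3G226900 they were just under 1 apart. These differences were not tested. Prupe.3G244700, given above, had the larger fall in HC buds, by a difference of -1.01. Prupe.2G279900, given above, and Prupe.3G226900 had the smaller fall in HC buds, by 1.07 and 1.00. Prupe.3G226900 had 22.3, 4.63, 5.84 and 15.7 FPKM in HC buds and 102, 6.29, 9.77 and 1.72 FPKM in control buds at 7 days, against 83.3, 101, 96.5 and 47.8 FPKM in HC buds and 75.7, 103, 234 and 216 FPKM in control buds at 3 days. Control replicate 1 of 7 days, the shallowest library, stood at the 3-day level, so the control days overlapped.

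Prupe.7G178500 and Prupe.3G155900 had the larger fall in HC buds, by a difference of -1.16 and -1.05. Prupe.7G178500 had 118, 73.5, 156 and 75.5 FPKM in HC buds and 171, 105, 91.5 and 162 FPKM in control buds at 7 days, against 1022, 552, 903 and 1083 FPKM in HC buds and 603, 578, 298 and 643 FPKM in control buds at 3 days. Prupe.3G155900 had 26.4, 36.1, 20.3 and 14.8 FPKM in HC buds and 37.6, 14.7, 126 and 40.7 FPKM in control buds at 7 days, against 333, 569.6, 406 and 303 FPKM in HC buds and 305, 340.5, 286 and 242 FPKM in control buds at 3 days. In both genes HC and control libraries overlapped on each day.

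At 7 days, limma called 0.446% of 16596 genes between HC and control buds in either direction, 2 members among them. These were Prupe.2G213600, higher in HC buds with a difference of group medians of 0.85, and Prupe.3G244700, lower in HC buds with one of -0.76, and their 7-day libraries, given above, did not overlap between treatments. The rule bounded this contrast, so the calls are a description. HC and control libraries of 7 days did not overlap in 8.88% of the 5733 genes and in these 2 members. The count of 2 changed when libraries of 7 days were left out. Leaving out HC replicate 1 or control replicate 1, 3 or 4 took it to 0, and HC replicate 3 or 4 took it to 1. Over all genes, the calls fell from 74 to between 26 and 45 in these settings. Without HC or control replicate 2 the count stayed at 2, with 99 and 166 genes called. At 3 days limma called 1.81% of the genes and none of the members, of which 2 had an unadjusted p under 0.05.

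Separate libraries at 3 days were seen in 3 members, against 14.6% of the 5733 genes. Prupe.1G210300 had 209.5, 276, 268 and 295 FPKM in HC buds and 450.0, 624, 425 and 540.2 FPKM in control buds at 3 days, and Prupe.3G179600 had 46.0, 54.3, 52.0 and 33.8 FPKM in HC buds and 111, 62.3, 90.5 and 93.0 FPKM in control buds. Each HC library of these 2 genes was below each control library. Prupe.3G012200 was the other way round, with 336, 416, 513 and 346 FPKM in HC buds and 124, 290.2, 219 and 216 FPKM in control buds at 3 days. At 7 days the 3 genes overlapped between treatments. Prupe.1G210300 had 83.2, 72.3, 54.2 and 35.5 FPKM in HC buds and 56.4, 76.7, 116 and 84.2 FPKM in control buds, Prupe.3G179600 had 15.1, 5.43, 34.5 and 4.64 FPKM in HC buds and 15.7, 2.41, 21.9 and 18.4 FPKM in control buds, and Prupe.3G012200 had 30.0, 19.9, 59.3 and 89.7 FPKM in HC buds and 63.1, 22.3, 27.9 and 12.2 FPKM in control buds.

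The authors' deposited table for 7 days gave an adjusted p under 0.05 for 8.35% of its 19439 genes and for 3 members, all lower in HC buds. In the authors' deposited table these were Prupe.3G244700 (log2 fold change -0.78, adjusted p = 3.1e-13), Prupe.3G289200 (-1.13, adjusted p = 0.0094) and Prupe.3G266200 (-1.41, adjusted p = 0.034). Prupe.2G213600 was listed in the authors' deposited table with 0.93 and an adjusted p of 0.53. Of the 2 members that limma called at 7 days, Prupe.3G244700 was thus also called there. For 3 days the authors' deposited table gave 8.82% of 19636 genes and 7 members, 3 higher and 4 lower in HC buds. The lower 4 in the authors' deposited table were Prupe.1G210300 (-0.90, adjusted p = 3.5e-13), Prupe.3G179600 (-0.73, adjusted p = 0.00013), Prupe.3G266200 (-0.30, adjusted p = 0.0077) and Prupe.3G226900 (-0.74, adjusted p = 0.024). The higher 3 in the authors' deposited table were Prupe.5G097700 (0.37, adjusted p = 0.0022), Prupe.3G012200 (1.15, adjusted p = 0.039) and Prupe.7G178500 (0.81, adjusted p = 0.047).

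Prupe.3G266200 and Prupe.3G289200 were low members. Prupe.3G266200 had 5.22, 4.69, 0.20 and 3.97 FPKM in HC buds and 0, 8.02, 17.8 and 11.2 FPKM in control buds at 7 days, against 44.5, 55.4, 43.1 and 49.1 FPKM in HC buds and 62.1, 44.9, 69.0 and 68.6 FPKM in control buds at 3 days. Prupe.3G289200 had 7.97, 7.82, 0.23 and 10 FPKM in HC buds and 9.86, 9.41, 20.1 and 15.6 FPKM in control buds at 7 days, against 54.9, 44.1, 65.1 and 34.2 FPKM in HC buds and 56.2, 141, 91.3 and 74.6 FPKM in control buds at 3 days. In both genes HC replicate 3 of 7 days was nearly at 0, and the days stayed apart in each treatment.

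Other members with high or clear levels were Prupe.1G299500, Prupe.4G186800 and Prupe.6G039200. Prupe.1G299500 had 114, 36.3, 64.0 and 45.5 FPKM in HC buds and 37.6, 56.9, 36.8 and 39.4 FPKM in control buds at 7 days, against 790.1, 554, 517 and 816 FPKM in HC buds and 528, 401, 422 and 453 FPKM in control buds at 3 days. Prupe.4G186800 had 55.0, 85.7, 104 and 151 FPKM in HC buds and 31.2, 109.5, 73.1 and 113 FPKM in control buds at 7 days, against 456, 732, 569 and 315 FPKM in HC buds and 728, 573, 558 and 691 FPKM in control buds at 3 days. Both genes had the days fully apart, and the falls of Prupe.1G299500 were -3.59 in HC and -3.47 in control buds. Prupe.6G039200 had 13.4, 4.29, 15.6 and 7.88 FPKM in HC buds and 0, 9.75, 8.41 and 3.76 FPKM in control buds at 7 days, against 161, 206, 140.1 and 91.5 FPKM in HC buds and 92.5, 129.8, 93.8 and 94.7 FPKM in control buds at 3 days.

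The last 4 members lay in the lower range of falls. Prupe.8G097300 had 34.6, 28.5, 38.2 and 15.7 FPKM in HC buds and 30.8, 25.2, 50.4 and 43.8 FPKM in control buds at 7 days, against 164, 252, 143 and 219.8 FPKM in HC buds and 190.4, 108, 143 and 184 FPKM in control buds at 3 days. Prupe.5G097700 had 16.3, 9.92, 48.5 and 16.2 FPKM in HC buds and 1.23, 5.08, 17.9 and 23.3 FPKM in control buds at 7 days, against 97.0, 74.7, 81.3 and 70.0 FPKM in HC buds and 59.3, 88.2, 56.3 and 64.4 FPKM in control buds at 3 days. The days were apart in both treatments for these 2 genes. Prupe.1G136600 had 8.85, 2.82, 11.5 and 3.74 FPKM in HC buds and 12.8, 5.47, 12.04 and 13.4 FPKM in control buds at 7 days, against 41.8, 70.2, 44.7 and 40.1 FPKM in HC buds and 63.2, 197, 63.2 and 68.5 FPKM in control buds at 3 days. Prupe.7G137000 had 8.10, 5.27, 0.30 and 9.25 FPKM in HC buds and 0, 13.2, 5.06 and 6.39 FPKM in control buds at 7 days, against 79.9, 34.4, 24.8 and 86.6 FPKM in HC buds and 66.0, 37.5, 8.76 and 40.2 FPKM in control buds at 3 days, so that control replicate 3 of 3 days lay under 1 control library of 7 days.

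By the chromosome number in the identifier, 9 of the 32 members (28.1%) were on chromosome 3. It held 11.3% of the 5723 genes with such a number and a mean of at least 20 FPKM. Chromosome 1 held 6 members, chromosomes 2, 5 and 7 held 4 each, chromosome 6 held 3, and chromosomes 4 and 8 held 1 each. The most abundant member, Prupe.3G244700, and Prupe.3G245100 were 4 identifier steps apart (a step is 100 in the number) and were the only members within 5 steps of each other. Their mean levels were 17255 and 102 FPKM, a scale per length, and Prupe.3G245100 had the larger fall in both treatments.

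Some members had neighbours that fell with them but missed the set. Of the 32 members, 5 (15.6%) had another gene within 5 steps that fell by 2 or more in both treatments, against 169 of 5723 genes (2.95%) with a mean of at least 20 FPKM, a description on the same contrasts as the rule. Prupe.3G244700 and Prupe.3G245100 are 2 of the 5. Prupe.1G021500 lay among Prupe.1G021400, with falls of -4.11 in HC and -3.17 in control buds, Prupe.1G021600, with -7.85 in HC and -9.52 in control buds, Prupe.1G021700, with -4.19 in HC and -5.699 in control buds, and Prupe.1G021800, with -5.35 in HC and -4.20 in control buds. These 4 passed the time limit and were left out because HC and control buds differed by 1 or more on a day. Prupe.5G090400 lay among Prupe.5G090000, with -4.53 in HC and -8.55 in control buds, Prupe.5G090600, with -4.17 in HC and -6.89 in control buds, and Prupe.5G090700, with -6.23 in HC and -8.31 in control buds. Between them Prupe.5G090300 had differences of -1.15 in HC and -0.74 in control buds. Prupe.3G012200 lay 2 steps from Prupe.3G012400, with -2.81 in HC and -3.18 in control buds. In Prupe.3G012400, HC minus control was 1.40 at 3 days and 1.77 at 7 days, outside the limit between treatments. Whether such neighbours are near copies that share reads was not tested, so the level of each one is uncertain.

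**Figure D5:**
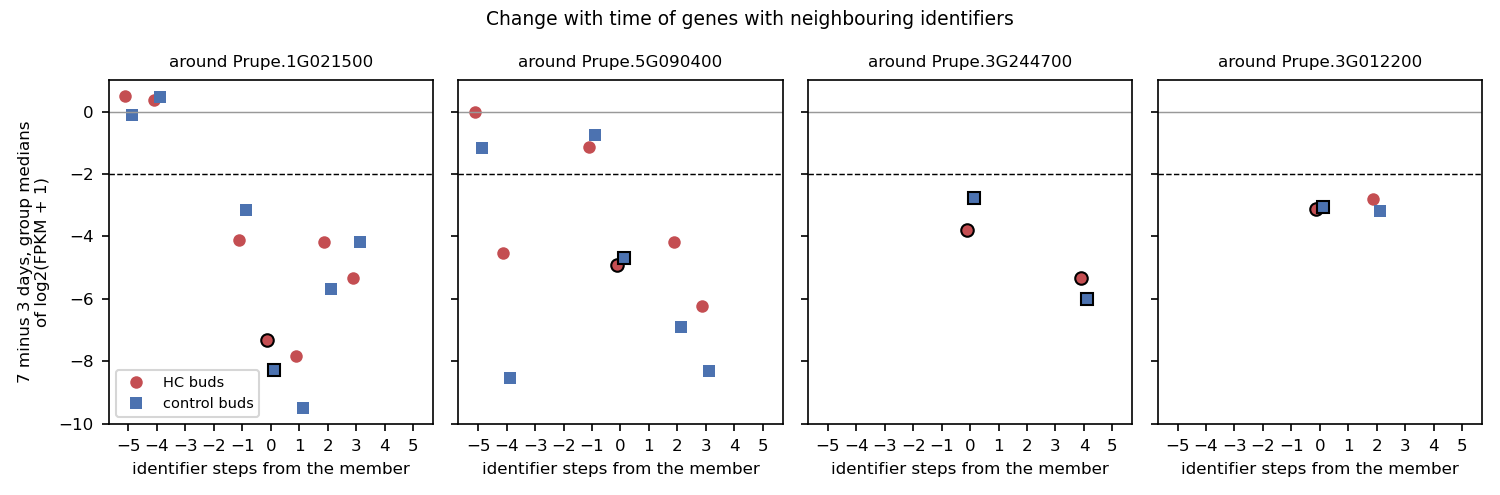
Difference of group medians of log2(FPKM + 1), 7 minus 3 days, in HC buds (circles) and control buds (squares), for genes with a mean of at least 20 FPKM within 5 identifier steps of 4 members, which are outlined in black. The dashed line is the limit of -2, and around Prupe.1G021500 and Prupe.5G090400 runs of neighbours lie below it.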

How the data were processed

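Buds of 16 libraries (4 groups of 4, grouped by the labels) were profiled by mRNA sequencing with the Illumina TruSeq mRNA protocol, per the labels. Per the submitters' processing notes, the tools were Trimmomatic, STAR 2.5.2a and RSEM 1.2.31, with no role stated for any of them. The matrix the authors deposited was taken to hold FPKM from its values, since its column names give no unit. No build of the genome is given in the sources used here. A further table for each day, per the file headers, holds the authors' log2 fold change (HC over control) and adjusted p-value for a gene, beside 1 signal value for each treatment. The sources used here do not give the test behind them.

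The members and the comparisons were chosen with earlier results of these data known. The rule was applied to log2(FPKM + 1) over the whole table, leaving out 7 identifiers (Prupe.1G531100 to Prupe.1G531700) as it states. limma 3.58.1 in R 4.3.3 (trend and robust settings, statmod 1.5.0) was fitted to log2(FPKM + 1) of all 16 libraries with 1 mean per group, over the 16596 genes that reached 1 FPKM in 4 or more libraries, with Benjamini-Hochberg adjustment over these genes and a threshold of 0.05. Contrasts were 7 against 3 days within each treatment and HC against control within each day. A fold change on the log2(FPKM + 1) scale understates changes of low genes, and a value of 0 says only that a gene is listed at 0.

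FPKM carries no depth. Dividing the deposited signal by FPKM gave 18510 genes a length-like factor. The step of each library, taken as a read, was chosen for how well low values fell on whole numbers of steps. With that step, 70.2% to 92.7% of low values per library fell within 0.2 of a whole number. The rate of 40% for evenly spread values holds for a step fixed beforehand. The choice of step raised the agreement, so the agreement is no check of the estimates. Depth and reads per gene are estimates from these steps and entered no test.

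Genes named were the 6 members with the largest mean fall, the 4 with the highest mean FPKM, the 2 with the highest and 2 with the lowest difference between falls, those next to each time limit and members within 5 identifier steps of each other. The other members are given too, outside this rule and with their values known. Lists by product name were not tested, since the reference table, of 26412 genes, matched 0 of 26873 identifiers, and no sequence was used.

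Alternatives were a pseudocount of 0.1, no filter, median-of-ratios scaling, only the 8 libraries compared, array weights, a replicate block, each library left out in turn, the 2 libraries of fewest genes above 0 left out, and other limits of the rule.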

Additional observations from a re-analysis of the deposited data

Results flagged for a closer look

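A value was picked out where 1 of 4 libraries of a group lay far from the others (Dixon's test, 95% level). Of 126 groups of 4 values of the members, 15 held such a library, where chance gives about 1 in 20, or 6.3. Control replicate 2 held 5 of them at 7 days and 4 at 3 days, and HC replicate 3 held 3 at 7 days.

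In control replicate 2 at 7 days, Prupe.1G136600 was at 5.47 FPKM (others 12.04 to 13.4), Prupe.3G179600 at 2.41 (15.7 to 21.9) and Prupe.3G244700 at 3385 (4141 to 4285). In the same library Prupe.1G299500 was at 56.9 FPKM (others 36.8 to 39.4) and Prupe.5G090400 at 5.66 (all others at 0). In control replicate 2 at 3 days, which had 8667 genes above 0, Prupe.1G136600 was at 197 FPKM (others 63.2 to 68.5) and Prupe.6G039200 at 129.8 (92.5 to 94.7). There Prupe.5G144200 was at 0.38 FPKM (others 30.3 to 43.1) and Prupe.7G104600 at 0 (75.03 to 105).

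In HC replicate 3 at 7 days, Prupe.3G266200 was at 0.20 FPKM (others 3.97 to 5.22), Prupe.3G289200 at 0.23 (7.82 to 10) and Prupe.5G144200 at 0 (4.34 to 6.16). Single cases were Prupe.7G089000 at 4.84 FPKM in HC replicate 4 at 7 days (others 0 to 0.29), Prupe.3G187800 at 33.7 in HC replicate 2 at 3 days (39.4 to 39.8) and Prupe.7G178500 at 298 in control replicate 3 at 3 days (578 to 643).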

How the results depend on the processing

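The set of 32 members depended on its limits. It held 53 genes with a mean FPKM of 10 or more, 58 with a fall of 1.5 or more and 11 with a fall of 3 or more, and 27 to 35 with another pseudocount, scaling or group mean in place of the median. The group mean kept 19 of the 32. Leaving out 1 library gave 25 to 42 genes and kept 21 to 31 of the 32, and 9 members stayed in the set whichever library was left out. Leaving out the 2 libraries of fewest genes above 0, a choice added for the set after seeing the data, gave 28.

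Of 1472 recomputed falls of members, 1469 stayed below 0. Many of these could not move, since other limits of the rule, or leaving out a library of the other treatment, do not change a fall. The members were also chosen for falls of 2 or more, so this count is no measure of robustness. Prupe.1G075900 in control buds was at 0.15 without control replicate 1 or 2 of 7 days and ran from -5.02 to 0.15 over libraries left out. Prupe.6G169800 in control buds was at 0.52 without the 2 libraries of fewest genes above 0. Prupe.3G187800 in HC buds was at -4.94 without HC replicate 1 or 2 of 7 days and at -0.93 without replicate 3 or 4. The cause was not tested for these.

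Genes lower at 7 days in HC buds numbered 1210 with array weights, 848 without the 2 libraries of fewest genes above 0, 743 with only the 8 libraries compared and 309 to 646 with 1 library left out, against 434. In control buds they numbered 265 with only the 8 libraries and 488 to 712 with 1 left out, against 655 lower and 566 higher. Median-of-ratios scaling turned that split to 493 lower and 675 higher. Members called ranged from 21 to 27 in HC and 24 to 26 in control buds with 1 library left out.

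Between HC and control buds at 7 days, genes called numbered 44 with a pseudocount of 0.1, 14 with only the 8 libraries and 26 to 166 with 1 library left out, against 74. The lowest was without control replicate 1 and the highest without control replicate 2 of 7 days. Members called there were 1 with median-of-ratios scaling, 1 with array weights, 0 without the 2 libraries of fewest genes above 0, 0 with only the 8 libraries and 0 to 2 with 1 left out. At 3 days genes called numbered 869 with array weights and 169 to 346 with 1 library left out, against 301, and 169 was without HC replicate 1 of 3 days. Members called there were 2 with array weights and 1 with only the 8 libraries, against 0.

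With replicate number as a block, genes called were 199 at 3 days and 12 at 7 days between HC and control buds, with 1 member at 7 days. Within treatments, the block gave 340 lower genes and 23 members in HC buds, and 537 and 25 in control buds. Correlations of deviations between same-numbered libraries lay between 0.04 and 0.08 for HC and control buds at 3 days, where each HC library correlated best with its own number, and between -0.09 and 0.08 over all 4 comparisons. None passed 0.1, and the main fits did not pair libraries by number. Neither these values nor the labels settle whether the numbers pair them.

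Low depth limits values near 0. The shallowest library had 0.555 M estimated reads, and members listed at 0 there cannot be told from members at a few FPKM or, for low length-like factors, more. Prupe.2G012500, with a factor of 0.374, was at 281 FPKM there on 10.9 estimated reads. Prupe.1G075900 and Prupe.6G169800, with factors of 0.388 and 0.237, were at 0 there, where a single read would be well over a few FPKM.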
